A study of Schizosaccharomyces pombe with 10 samples.

Results

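Long non-coding RNA (lncRNA) windows are the 200 bp stretches of fission yeast (Schizosaccharomyces pombe) chromosome arms that the deposited table assigned to a non-coding transcript, by a gene ID starting with SPNCRNA. The 340 SPNCRNA windows in a centromere or near a chromosome end (within 40 kb on I and II, 25 kb on III) did not enter the set. The rule gave 11685 of 126317 windows, 4964 on chromosome I, 4479 on chromosome II and 2242 on chromosome III. These windows carried 1061 gene IDs, with a median of 9 windows per ID and a range of 1 to 55. Windows started every 100 bp, so neighbours shared DNA. The deposited descriptions called 458 of the IDs antisense RNAs (6339 windows), 372 intergenic RNAs (3906 windows) and 231 something else (1440 windows), among them the telomerase, RNase P and signal recognition particle RNAs. In the RefSeq annotation of assembly ASM294v3, 1010 of the 1061 IDs were found, and 11305 of the 11313 windows of those IDs overlapped the annotated gene of that ID. By position, 6013 of the lncRNA windows touched no protein-coding gene, 4391 touched coding sequence and 1281 touched a protein-coding gene outside its coding sequence.

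Chromatin immunoprecipitation sequencing had been done on 10 libraries in 4 groups, to ask whether the class I myosin Myo1 sits on chromatin and whether phosphate changes that. Myo1-GFP libraries came from a strain in which Myo1 carries green fluorescent protein, with 3 replicates after 4 h in low phosphate (YES LowPi) and 3 after 4 h in high phosphate (YES, a rich medium). NoIP libraries, labelled with a wild-type strain, had 2 replicates in low phosphate and 2 in high phosphate. Every culture was kept at 30°C, brought to 0.5 OD per ml and fixed for 30 min in 3% formaldehyde, and the labels give 1 text for the pulldown with GFP-Trap beads, whatever the library. It is thus not settled whether NoIP means a pulldown from untagged cells or chromatin that saw no pulldown, and strain and library kind cannot be told apart. Nothing in the labels says that replicates were separate cultures, so p-values measure only the spread between these libraries.

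Fission yeast lncRNAs are made by RNA polymerase II and many are short-lived, because the nuclear exosome removes them. Antisense lncRNAs run across a gene on its other strand, whereas intergenic ones often start upstream of a gene. Some are known to act through the act of being transcribed, such as those made upstream of the phosphate genes pho1 and tgp1, which keep the downstream promoter silent while phosphate is plentiful. In formaldehyde ChIP, open and strongly transcribed chromatin gives signal with no tagged protein at all, and a pulldown from untagged cells measures that background. Whether NoIP is such a pulldown is not settled.

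Values are log2 signal relative to the median window of the same library, so 1 stands for 2 times the signal of the median window. For a whole lncRNA, the signal was first averaged over its windows. Depth was uneven. With the smallest step of each library taken as 1 read, the median lncRNA window held 11 reads in Myo1-GFP low phosphate replicate 3 and 8 in Myo1-GFP high phosphate replicate 3, and 61 to 317 in the other 8 libraries. In those shallow libraries 25 and 8 lncRNA windows were at 0, and in the other 8 libraries none was.

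The DNA of 4 windows is printed because each leads a comparison given later. The first had the largest phosphate change among the lncRNA windows that passed in Myo1-GFP, the second ranked among the first 3 by p-value in NoIP and passed in Myo1-GFP, the third had the smallest p-value for phosphate in NoIP, and the fourth had the smallest for Myo1-GFP against NoIP over both conditions. Each is read 5′ to 3′ on the plus strand of ASM294v3. The deposited table used ASM294v2, and its chromosome lengths equal those of ASM294v3. Bases were not compared between the builds. Capitals mark TGACGT, the core bound by ATF/CREB-type factors such as Atf1, searched on both strands (reverse complement ACGTCA). It stands in 3.68% of lncRNA windows and in 3.19% of all arm windows. The first window lies in SPNCRNA.1132, the second in SPNCRNA.1157, the third in SPNCRNA.1558 and the fourth in SPNCRNA.1133, and none touches a protein-coding gene. Their GC contents are 41%, 40%, 44.5% and 30.5%.
chrIII:346701-346900: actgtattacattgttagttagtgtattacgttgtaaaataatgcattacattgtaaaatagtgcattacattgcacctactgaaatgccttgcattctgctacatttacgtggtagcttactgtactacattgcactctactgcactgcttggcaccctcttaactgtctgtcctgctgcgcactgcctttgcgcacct
chrIII:764901-765100: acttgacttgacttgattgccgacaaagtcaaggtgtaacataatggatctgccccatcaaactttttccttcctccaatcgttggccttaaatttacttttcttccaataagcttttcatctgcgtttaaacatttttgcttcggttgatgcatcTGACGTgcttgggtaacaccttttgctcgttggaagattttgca
chrII:2887001-2887200: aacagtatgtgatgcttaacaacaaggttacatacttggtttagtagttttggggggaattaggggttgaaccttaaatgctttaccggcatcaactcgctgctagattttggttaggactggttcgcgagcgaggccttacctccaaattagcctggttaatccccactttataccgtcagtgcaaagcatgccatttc
chrIII:351401-351600: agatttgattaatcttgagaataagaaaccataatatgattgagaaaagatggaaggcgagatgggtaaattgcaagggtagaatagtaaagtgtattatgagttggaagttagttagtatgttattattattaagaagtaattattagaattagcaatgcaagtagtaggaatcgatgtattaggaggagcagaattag

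The lncRNA windows as a whole lay near the median window of their library, and where they departed from it they did so by position. Windows that touched no protein-coding gene had library medians of 0.11, 0.10 and 0 in Myo1-GFP low phosphate replicates 1, 2 and 3, against -0.13, 0.01 and 0 in the high phosphate replicates. In NoIP the same windows had medians of 0.14 and 0.17 in low phosphate, against -0.09 and -0.03 in high phosphate. Low phosphate stood above high phosphate in NoIP without overlap. Arm windows without a gene ID did the same, with NoIP medians of 0.13 and 0.19 in low phosphate, against 0 and 0.01 in high phosphate. In Myo1-GFP the shallow libraries of both conditions sat at 0, as they did in every set of windows plotted below. At 11 and 8 reads in the median window, 1 read is a coarse step, so that 0 is not a fine measurement. Windows in coding sequence lay at or below 0 in every library, with a mean of library medians of -0.05 ± 0.04 in Myo1-GFP low phosphate and -0.02 ± 0.02 in Myo1-GFP high phosphate (SD, n = 3 each). In NoIP they were at -0.08 ± 0.01 in low phosphate and -0.06 ± 0.01 in high phosphate (SD, n = 2 each). Each of the Myo1-GFP means includes a shallow library at 0.

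**Figure D1:**
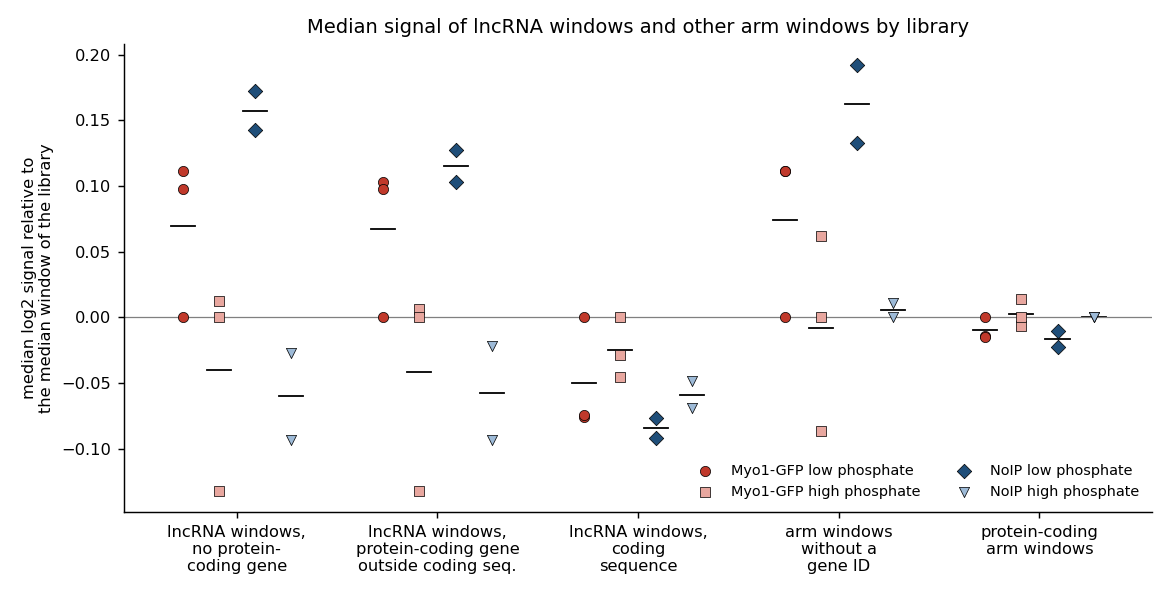
Median log2 signal of lncRNA windows in 3 positions, and of arm windows with no gene ID and in protein-coding genes, relative to the median window of each library. Each point is 1 library and each bar the mean of a group. NoIP low phosphate stands above NoIP high phosphate in lncRNA windows outside coding sequence and also in arm windows without a gene ID.

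Single lncRNAs differed far more than these medians. Over the 4 NoIP libraries, the mean level of the 1061 lncRNAs had a median of 0.02 and a 5th to 95th percentile range of -0.35 to 0.78, and 25 lncRNAs stood above 1. The highest of those with at least 3 windows was SPNCRNA.53 (prl53, a polyadenylated RNA), with a mean NoIP level of 2.08. It was at 1.79, 2.09 and 1.21 in Myo1-GFP low phosphate, 1.42, 1.62 and 1.99 in Myo1-GFP high phosphate, 2.38 and 1.91 in NoIP low phosphate and 2.24 and 1.80 in NoIP high phosphate, so all 4 groups overlapped. The next were SPNCRNA.1375 at 1.67, which reaches into tef103 outside its coding sequence, and SPNCRNA.957 at 1.54, antisense to tef102. Both genes encode translation elongation factor EF-1 alpha and are near-identical copies, so reads of SPNCRNA.957 cannot be assigned with certainty. Then came SPNCRNA.1140, which overlaps the serine synthesis gene ser3, and SPNCRNA.727 at 1.42, part of whose windows overlap the RNase MRP RNA gene mrp1. The lowest were SPNCRNA.1096 at -0.86 and SPNCRNA.1097 at -0.85, neighbours on chromosome III between 38801 and 41600. SPNCRNA.266 and SPNCRNA.1306 followed with -0.61 each and SPNCRNA.1099 with -0.54.

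Several of the RNAs with a known role in the cell belonged to the upper part of this range. The 7SL signal recognition particle RNA srp7 (SPNCRNA.98) had a mean NoIP level of 1.05, the snoRNA snoR61 (SPNCRNA.445) 1.03 and the RNase MRP RNA mrp1 (SPNCRNA.82) 0.87. The RNase P RNA rrk1 (SPNCRNA.128) had 0.44 and meiRNA (sme2, SPNCRNA.103), which binds the meiotic regulators Mei2 and Mmi1, had 0.21. Telomerase RNA ter1 (SPNCRNA.214) was at -0.02, near the median window. IRC1-L (SPNCRNA.84) and IRC1-R (SPNCRNA.95), which flank the centromere of chromosome I, had 0.74 and 0.78, and they are inverted copies of each other, so their reads cannot be assigned with certainty. None of these 8 passed the test in any of the 6 contrasts.

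Myo1-GFP was set against NoIP to find lncRNAs with more signal in cells with tagged myosin, and none passed. With limma and an adjusted p under 0.05, 0 of 11685 lncRNA windows differed in low phosphate, 0 in high phosphate and 0 over both conditions, as did 0 of all 126242 windows tested (0.0%). At an unadjusted p under 0.05, 25 lncRNA windows differed in low phosphate, 0.214% of them beside 0.122% of all windows. In high phosphate 143 differed, 1.22% beside 1.2%, and over both conditions 131, 1.12% beside 0.928%. Higher in Myo1-GFP were 2 of these windows in low phosphate (0.0171% of lncRNA windows, beside 0.0491% of all windows), 61 in high phosphate (0.522%, beside 0.468%) and 29 over both conditions (0.248%, beside 0.255%). For whole lncRNAs the calls were again 0 in each contrast (0.0% of 6117 gene IDs), and at the unadjusted threshold of 0.05 low phosphate gave 13 of 1061 (1.23%, beside 0.36% of all gene IDs), high phosphate 27 (2.54%, beside 2.11%) and both conditions together 32 (3.02%, beside 1.72%). Higher in Myo1-GFP were 3 of the 13 (0.283% of lncRNAs, beside 0.049% of all gene IDs), 13 of the 27 (1.23%, beside 0.85%) and 8 of the 32 (0.754%, beside 0.327%).

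The median change of the 1061 lncRNAs, Myo1-GFP minus NoIP, was -0.06 in low phosphate and 0.01 in high phosphate, beside -0.02 and 0.01 over all gene IDs. The low phosphate median was -0.04 without Myo1-GFP low phosphate replicate 3 (-0.02 over all gene IDs) and -0.03 with signal centred within GC bins (-0.02 over all gene IDs). Over both conditions the median window change was -0.04 in lncRNA windows and -0.08 in arm windows without a gene ID. In low phosphate 215 lncRNAs had every Myo1-GFP library below every NoIP library, 20.3% beside 12.8% of all gene IDs, and 48 had every one above, 4.52% beside 6.13%. In high phosphate 86 lay below, 8.11% beside 10.1% of all gene IDs, and 81 above, 7.63% beside 9.04%. Without overlap in both conditions, 25 lay below, 2.36% beside 1.93%, and 8 above, 0.754% beside 0.752%. Of the lncRNA windows, 1844 lay below in low phosphate, 15.8% beside 11.9% of all windows, and 721 above, 6.17% beside 7.49%. In high phosphate 967 lay below, 8.28% beside 9.41%, and 900 above, 7.70% beside 7.68%. Over both conditions, with the condition held apart, the 5th to 95th percentile range of the changes was -0.33 to 0.20.

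On the lower side, the smallest unadjusted p over both conditions belonged to SPNCRNA.1133, an intergenic RNA between the eisosome gene pil1 and duc1 (chromosome III, 351201 to 353300). It had 1.04, 0.93 and 0.66 in Myo1-GFP low phosphate, against 1.26 and 1.20 in NoIP low phosphate. In high phosphate it had 0.08, 0.32 and -0.16 in Myo1-GFP, against 0.58 and 0.52 in NoIP. Every Myo1-GFP library lay below every NoIP library of the same condition. The change over both conditions was -0.41 ± 0.12 (SE, limma, adjusted p = 0.956). SPNCRNA.1133 held the 3 windows with the smallest unadjusted p over both conditions, and the one at 351401 printed above changed by -0.65 ± 0.17 (SE, limma, adjusted p = 0.957). SPNCRNA.1657 (-0.66 ± 0.21), which overlaps the glycerol-3-phosphate dehydrogenase gene gpd1 outside its coding sequence, and SPNCRNA.988 (-0.50 ± 0.17) were also lower without overlap in both conditions (SE, limma, adjusted p = 0.956 each). In the 8 deeper libraries their changes were -0.41 and -0.32.

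The smallest unadjusted p on the higher side belonged to SPNCRNA.1096, the lowest in NoIP among lncRNAs of at least 3 windows. It had -0.93, -0.73 and -0.69 in Myo1-GFP low phosphate, against -1.20 and -1.16 in NoIP low phosphate. In high phosphate it had -0.25, -0.37 and -0.13 in Myo1-GFP, against -0.52 and -0.56 in NoIP. Myo1-GFP lay above NoIP in every library of both conditions, by 0.35 ± 0.07 (SE, limma, unadjusted p = 0.000927, adjusted p = 0.956). Its neighbour SPNCRNA.1097 had a change of 0.25 ± 0.07 (SE, limma, adjusted p = 0.956), also with no overlap within a condition. With quantile normalization the changes were 0.99 for SPNCRNA.1096 and 0.63 for SPNCRNA.1097, and no alternative turned their direction.

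Low phosphate was set against high phosphate within each kind of library, and here lncRNAs did pass, all of them upward. In Myo1-GFP, 6 of 1061 lncRNAs had more signal in low phosphate (limma, adjusted p under 0.05), beside 11 of 6117 gene IDs or 0.18%. All 11 were higher too. In NoIP, 12 lncRNAs did, beside 21 gene IDs or 0.343%, of which 17 were higher and 4 lower. These 12 lncRNAs included all 6 called in Myo1-GFP. The 2 comparisons have no library in common, but the fit gives them 1 shared estimate of the spread of each lncRNA. At an unadjusted p under 0.05, 206 lncRNAs differed in Myo1-GFP, 19.4% beside 11.5% of all gene IDs, and 185 of them were higher, 17.4% beside 8.01%. In NoIP 162 differed, 15.3% beside 7.26%, and 155 of them were higher, 14.6% beside 5.89%. Single libraries moved these counts. The counts that follow are of lncRNAs alone, with no count over all gene IDs beside them. They show the dependence on single libraries and do not set lncRNAs apart. Without Myo1-GFP low phosphate replicate 3, the counts were 41 in Myo1-GFP and 39 in NoIP. Without Myo1-GFP high phosphate replicate 3 they were 12 and 24. Without replicate 1 of either Myo1-GFP group or Myo1-GFP low phosphate replicate 2, they were 1 and 4, and without Myo1-GFP high phosphate replicate 2 they were 4 and 7. Without a replicate 1 of NoIP, 0 passed in NoIP, and without a replicate 2 of NoIP 2 did, with 3 in Myo1-GFP where the library left out was a low phosphate one and 4 where it was a high phosphate one.

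SPNCRNA.1132 changed most in Myo1-GFP among the lncRNAs that passed. Its 5 windows (chromosome III, 346301 to 346900) lie between dis1, a microtubule-associated protein gene, and pil1, and the RNA is annotated on the minus strand from 342960 to 346745, antisense to dis1. It had 1.10, 1.16 and 1.20 in Myo1-GFP low phosphate, against -0.55, -0.29 and -0.32 in Myo1-GFP high phosphate. In NoIP it had 1.48 and 1.18 in low phosphate, against -0.09 and -0.07 in high phosphate. No high phosphate library came near a low phosphate one. The change was 1.54 ± 0.12 in Myo1-GFP (SE, limma, adjusted p = 0.00201) and 1.41 ± 0.15 in NoIP (SE, limma, adjusted p = 0.00951).

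SPNCRNA.332 overlaps erg1, which encodes squalene epoxidase of sterol synthesis, and none of its 4 windows touches coding sequence. It had 0.76, 0.87 and 0.93 in Myo1-GFP low phosphate, against -0.48, -0.08 and -0.54 in Myo1-GFP high phosphate. In NoIP the values were 1.13 and 0.97 in low phosphate, against -0.19 and -0.16 in high phosphate. The groups did not overlap. SPNCRNA.332 rose by 1.22 ± 0.13 in Myo1-GFP and by 1.23 ± 0.16 in NoIP (SE, limma, adjusted p = 0.0102 and 0.0243). Another sterol gene, erg11 (lanosterol demethylase), has its start 48 bp from SPNCRNA.155. SPNCRNA.155 had 0.55, 0.53 and 0.62 in Myo1-GFP low phosphate, against -0.22, -0.15 and -0.04 in Myo1-GFP high phosphate, and 0.69 and 0.60 in NoIP low phosphate, against -0.17 and -0.20 in NoIP high phosphate. It rose by 0.70 ± 0.09 in Myo1-GFP and 0.83 ± 0.11 in NoIP (SE, limma, adjusted p = 0.0204 and 0.0243).

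SPNCRNA.1318 is antisense, and its 10 windows all overlap the hexose transporter gene ght4 outside coding sequence, beside the maltase gene mal1. It had 0.67, 0.73 and 0.75 in Myo1-GFP low phosphate, against -0.25, -0.26 and -0.39 in Myo1-GFP high phosphate. In NoIP it had 1.12 and 0.78 in low phosphate, against -0.55 and -0.23 in high phosphate. The rise was 1.01 ± 0.12 in Myo1-GFP and 1.34 ± 0.15 in NoIP (SE, limma, adjusted p = 0.0155 and 0.0110), with no overlap in either. SPNCRNA.603, upstream of another transporter gene of that family, ght3, had a change of 0.53 ± 0.13 in Myo1-GFP (adjusted p = 0.138) and passed in NoIP (0.98 ± 0.16, adjusted p = 0.0466, SE and limma for both).

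SPNCRNA.628 and SPNCRNA.626 overlap each other on opposite strands on chromosome I, and ChIP reads carry no strand, so their signals cannot be separated where they overlap. SPNCRNA.628 had 0.42, 0.41 and 0.35 in Myo1-GFP low phosphate, against -0.52, -0.35 and -0.75 in Myo1-GFP high phosphate, and 0.61 and 0.56 in NoIP low phosphate, against -0.60 and -0.23 in NoIP high phosphate. SPNCRNA.628 rose in both (SE of 0.13 and 0.16), by 0.93 in Myo1-GFP (limma, adjusted p = 0.0276) and by 0.997 in NoIP (limma, adjusted p = 0.0414). SPNCRNA.626 had a change of 0.54 ± 0.10 in Myo1-GFP (adjusted p = 0.0701) and passed in NoIP (0.77 ± 0.12, adjusted p = 0.0402, SE and limma for both). SPNCRNA.1018, an antisense RNA that overlaps the peroxisomal import receptor gene pex7, was the only one of the 12 with windows in coding sequence (30.8% of its 13 windows). It had 0.40, 0.37 and 0.21 in Myo1-GFP low phosphate, against -0.44, -0.29 and -0.36 in Myo1-GFP high phosphate, and 0.54 and 0.49 in NoIP low phosphate, against -0.27 and -0.33 in NoIP high phosphate. SPNCRNA.1018 rose by 0.69 ± 0.09 in Myo1-GFP and 0.82 ± 0.11 in NoIP (SE, limma, adjusted p = 0.0210 and 0.0243).

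SPNCRNA.1572, SPNCRNA.450, SPNCRNA.1124 and SPNCRNA.781 passed in NoIP, with an adjusted p in Myo1-GFP between 0.0516 and 0.0722. All 4 passed in Myo1-GFP too with signal centred within GC bins (limma, adjusted p between 0.0254 and 0.0460), with library weights and in the 8 deeper libraries. Of these, only SPNCRNA.1124 missed the threshold in NoIP with the replicate number as a block (limma, adjusted p = 0.0707). In Myo1-GFP the same block left only SPNCRNA.450 of the 4 past the threshold (limma, adjusted p = 0.0490). SPNCRNA.603 missed it with the block in both kinds of library (limma, adjusted p = 0.157 in Myo1-GFP and 0.0798 in NoIP). SPNCRNA.1572 has 2 windows at the start of gsf1, a transcription factor gene of flocculation, and neither touches coding sequence. It had 0.93, 0.80 and 0.93 in Myo1-GFP low phosphate, against -0.14, -0.08 and 0.17 in Myo1-GFP high phosphate. In NoIP it had 1.29 and 0.99 in low phosphate, against -0.59 and -0.21 in high phosphate, a change of 1.54 ± 0.18 (SE, limma, adjusted p = 0.0110). SPNCRNA.450 (chromosome III, 48901 to 49300) had 0.07, 0 and -0.19 in Myo1-GFP low phosphate, against -0.62, -0.54 and -0.58 in Myo1-GFP high phosphate, and 0.17 and 0.10 in NoIP low phosphate, against -0.98 and -0.84 in NoIP high phosphate. Its changes were 0.55 ± 0.09 in Myo1-GFP and 1.05 ± 0.11 in NoIP (SE, limma, adjusted p = 0.0541 and 0.00951). The changes of SPNCRNA.1124 and SPNCRNA.781 in NoIP were 1.05 ± 0.16 and 0.88 ± 0.14 (SE, limma, adjusted p = 0.0402 and 0.0453). SPNCRNA.781 lies 973 bp upstream of hsr1, a stress-response transcription factor gene.

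**Figure D2:**
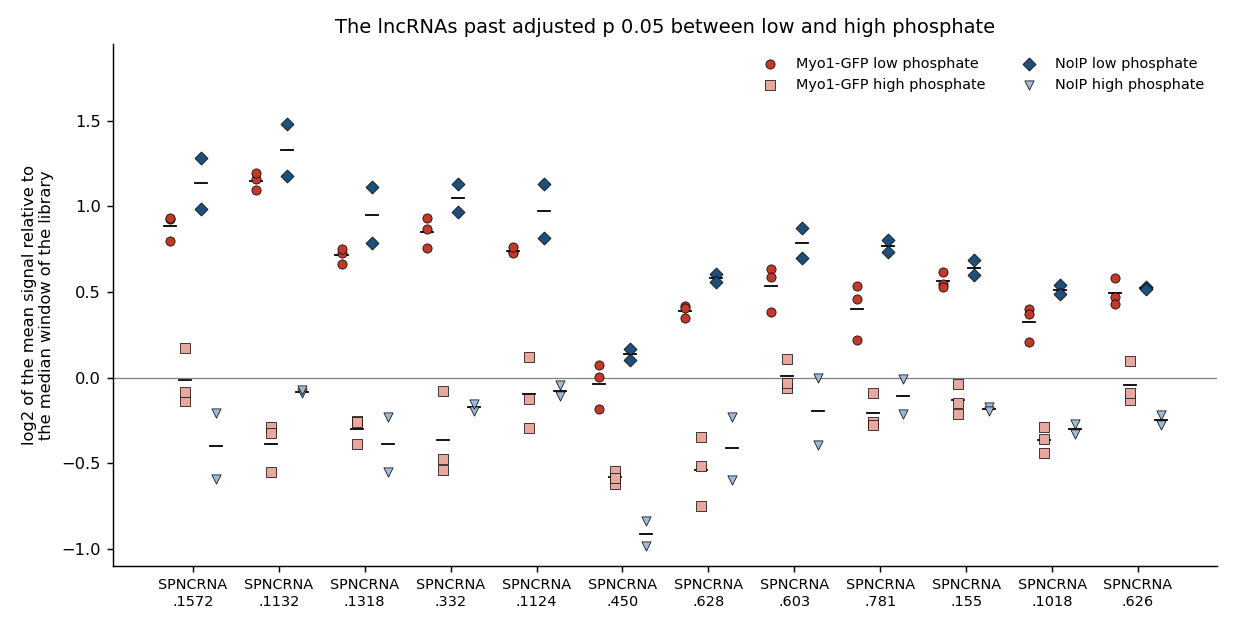
Log2 of the mean signal of the 12 lncRNAs past adjusted p 0.05 in at least 1 of the 2 phosphate comparisons, relative to the median window of the library, with 1 point per library and a bar for the group mean. In all 12, every low phosphate library lies above every high phosphate library of its own kind.

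No lncRNA passed downward in either kind of library. SPNCRNA.1096, whose values are given above, had a change of -0.53 ± 0.09 in Myo1-GFP (SE, limma, adjusted p = 0.0566) and the lowest change of any lncRNA in NoIP (-0.64 ± 0.11, SE, limma, adjusted p = 0.0681), without overlap in either. SPNCRNA.1021, an antisense RNA with 78.0% of its windows in coding sequence, had -0.20 ± 0.08 in Myo1-GFP and -0.52 ± 0.10 in NoIP (SE, limma, adjusted p = 0.415 and 0.0982).

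Of single windows, 6 of 11685 passed in Myo1-GFP, all higher in low phosphate, beside 22 of 126242 windows or 0.0174%, all higher too. At an unadjusted p under 0.05 the count was 1521, 13% of lncRNA windows beside 7.99% of all windows, and 1284 of them were higher, 11% beside 5.24%. In NoIP 0 passed (0.0% of all windows), with 1084 lncRNA windows at an unadjusted p under 0.05 by limma, 9.28% beside 4.58%, and 1032 of them higher, 8.83% beside 3.8%. Leaving out any 1 library gave 0 windows in both, except Myo1-GFP low phosphate replicate 3, without which 141 passed in Myo1-GFP and 117 in NoIP. No count over all windows is given beside the 141 and 117, so they do not set lncRNA windows apart. The 6 windows that passed with all 10 libraries lie in 4 lncRNAs, and none touches a protein-coding gene. At 346701, in SPNCRNA.1132, signal stood at 1.21, 1.30 and 1.58 in Myo1-GFP low phosphate, against -0.56, -0.44 and -1.41 in Myo1-GFP high phosphate (2.17 ± 0.26, SE, limma, adjusted p = 0.0449). The -1.41 comes from the shallow replicate 3, whose median lncRNA window held 8 reads, so it rests on few reads. Leaving out any 1 library, the change at 346701 was between 1.87 and 2.35. The overlapping window at 346601 changed by 2.05 ± 0.19 (adjusted p = 0.0359). At 3008801, in SPNCRNA.1571 between the ubiquitin-conjugating enzyme gene ubc1 and gsf1, signal was 0.80, 0.78 and 0.79 in Myo1-GFP low phosphate, against -1.04, -0.87 and -1.41 in Myo1-GFP high phosphate (1.90 ± 0.18, adjusted p = 0.0359), and the window at 3008701, with 51.5% GC, changed by 1.71 ± 0.20. Here too the -1.41 is the shallow replicate 3. Leaving out any 1 library, the change at 3008801 was between 1.75 and 2.02. The remaining ones were at 764901 in SPNCRNA.1157 (1.58 ± 0.16) and at 1703901 in SPNCRNA.1218 (1.45 ± 0.17), with adjusted p = 0.0359 and 0.0409. In NoIP the leading window of each of the 4 lncRNAs (346701, 3008801, 764901 and 1703901) had changes of 1.70, 1.54, 1.46 and 1.44, and their low phosphate libraries all lay above their high phosphate ones.

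In NoIP the smallest unadjusted p belonged to the window at 2887001 in SPNCRNA.1558, upstream of the zinc finger gene rsv1. In Myo1-GFP it had 0.55, 0.52 and 0.71 in low phosphate, against -0.35, -0.43 and -0.41 in high phosphate (0.99 ± 0.17, SE, limma, adjusted p = 0.0880). The NoIP values were 1.06 and 0.75 in low phosphate, against -0.83 and -0.58 in high phosphate (1.61 ± 0.21, SE, limma, adjusted p = 0.163). In all 4 printed windows, every low phosphate library stood above every high phosphate library of its own kind.

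Beyond the calls, the median change of the 1061 lncRNAs in low phosphate was 0.09 in Myo1-GFP, beside -0.01 over all gene IDs, and 0.14 in NoIP, beside 0.02. Without Myo1-GFP high phosphate replicate 1 the Myo1-GFP median was 0.04, beside -0.03, and with no centring the medians were 0.17 in Myo1-GFP, beside 0.08, and 0.22 in NoIP, beside 0.10. In Myo1-GFP 172 lncRNAs had every low phosphate library above every high phosphate one, 16.2% beside 10.1% of all gene IDs, and 46 had every one below, 4.34% beside 8.21%. In NoIP 500 lay above without overlap, 47.1% beside 29.7%, and 112 below, 10.6% beside 19.6%. For windows the shares above were 12.6% in Myo1-GFP, beside 7.38% of all windows, and 36.6% in NoIP, beside 24.0%. Arm windows without a gene ID had shares of 12% in Myo1-GFP and 39.6% in NoIP. The NoIP groups hold 2 libraries each and so part more easily than the groups of 3.

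Over the 1061 lncRNAs, Pearson's r between their phosphate changes in the 2 kinds of library was 0.596, and 68.1% had the same sign in both, 50.8% higher and 17.3% lower. Without the shallow replicate 3 of both Myo1-GFP groups, r was 0.836. These are descriptions across lncRNAs, which are not independent replicates and share libraries, GC content and neighbours. The test of whether the phosphate change itself differed, Myo1-GFP minus NoIP (an interaction term), passed for 0 lncRNAs (0.0% of gene IDs, limma), with 13 at an unadjusted p under 0.05 (1.23% of lncRNAs, beside 0.572% of all gene IDs), and for 0 lncRNA windows, with 43 at an unadjusted p under 0.05 (0.368% of lncRNA windows, beside 0.322% of all windows). Among the 12 lncRNAs of the plot by library, SPNCRNA.450 had the smallest unadjusted p for it, at -0.50 ± 0.14 (SE, limma, unadjusted p = 0.00636, adjusted p = 0.999).

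**Figure D3:**
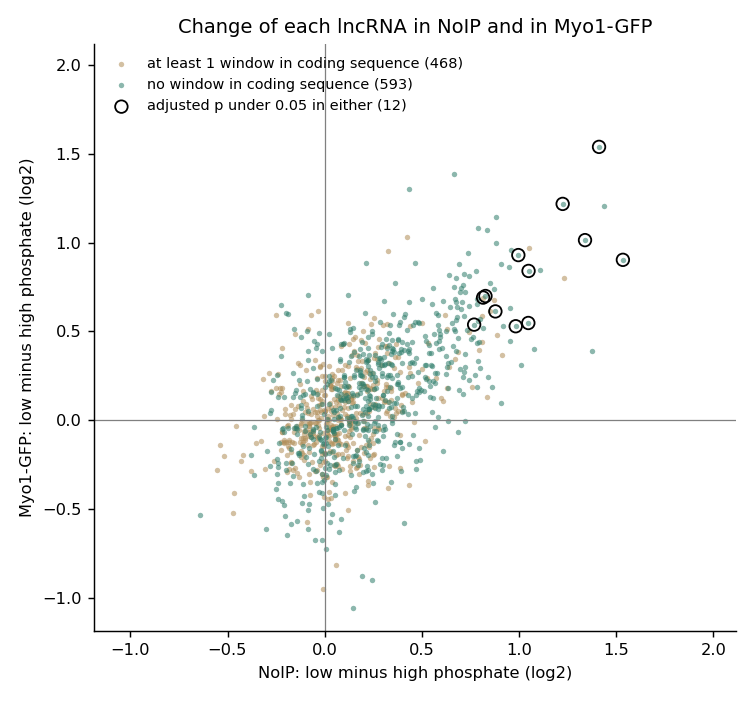
Change of each of the 1061 lncRNAs between low and high phosphate (log2) in NoIP on the horizontal axis and in Myo1-GFP on the vertical axis. Colours separate lncRNAs with and without a window in coding sequence, rings mark the 12 past adjusted p 0.05, and the ringed ones have changes of at least 0.53 in Myo1-GFP and 0.77 in NoIP.

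The change differed with where in the lncRNA a window lay. Windows that touched no protein-coding gene had a median change of 0.14 in Myo1-GFP and 0.19 in NoIP, whereas those in coding sequence had -0.03 in both. Windows in a protein-coding gene outside coding sequence were in between, at 0.11 and 0.14. Intergenic lncRNAs had medians of 0.18 and 0.21 and antisense ones 0.02 and 0.03. Antisense lncRNAs have 66.1% of their windows in coding sequence, and intergenic ones have 4.07%. With position held fixed, antisense windows that touch no protein-coding gene had 0.14 and 0.18, and intergenic ones 0.18 and 0.22. The arm windows outside lncRNAs that touch no protein-coding gene had 0.08 in Myo1-GFP and 0.16 in NoIP, and those in coding sequence had -0.06 and -0.04, so the same order by position was seen away from lncRNAs. By chromosome the lncRNA medians were 0.06 to 0.08 in Myo1-GFP and 0.08 to 0.10 in NoIP.

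Outside coding sequence, the change went with GC content. In lncRNA windows that touch no protein-coding gene, the median change in Myo1-GFP was 0.06 at up to 25% GC (384 windows), 0.11 at 30 to 35% (2257 windows), 0.40 at 40 to 45% (505 windows) and 0.54 above 45% (131 windows). In NoIP the same bins had 0.12, 0.17, 0.45 and 0.77. Every step from 1 bin to the next was upward in both kinds of library. In coding sequence the medians of the lncRNA bins from 25% upward lay between -0.06 and 0.04 in Myo1-GFP, and in NoIP they were lower from bin to bin, 0.07 at 25 to 30% GC and -0.12 above 45%. Arm windows outside lncRNAs that touch no protein-coding gene had 0.25 and 0.40 at 40 to 45% GC, below the lncRNA windows. Above 45% GC they had 0.67 and 0.82 (197 windows), above the lncRNA windows. The GC content of the 12 lncRNAs that passed was between 29.8% and 39.9%, above 35% in 9 of them. With signal centred within 1% bins of GC content, 17 lncRNAs passed in Myo1-GFP, beside 30 of 6074 gene IDs or 0.494%. In NoIP 14 did, beside 26 gene IDs or 0.428%.

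**Figure D4:**
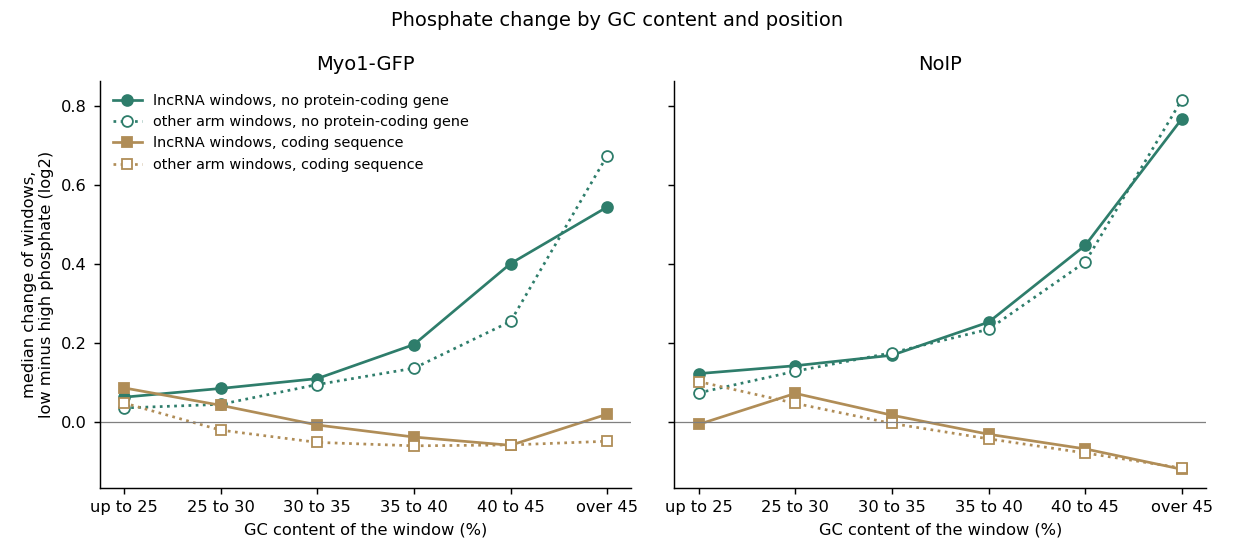
Median change of windows between low and high phosphate (log2) by GC content in bins of the window, for Myo1-GFP on the left and NoIP on the right. Filled symbols are lncRNA windows and open ones the other arm windows. Outside protein-coding genes the change climbs with GC content to 0.54 and 0.77 above 45% GC in lncRNA windows, and in their coding sequence bins from 25% GC upward it stays between -0.12 and 0.07. The other arm windows outside protein-coding genes reach 0.67 and 0.82 above 45% GC.

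Windows with the core TGACGT were also set beside those without it. Outside protein-coding genes, the 202 lncRNA windows with it had a median change of 0.28 in Myo1-GFP and 0.38 in NoIP, against 0.14 and 0.19 in the 5811 windows without it. The other arm windows outside protein-coding genes had the same order. Their medians were 0.175 in Myo1-GFP and 0.237 in NoIP with it (384 windows), against 0.083 and 0.157 without it. The GC bins that follow are of the lncRNA windows. Within 35 to 40% GC the values were 0.31 and 0.46 with it (61 windows), against 0.19 and 0.24 without it. Within 40 to 45% GC they were 0.55 and 0.98 (30 windows), against 0.39 and 0.41, and above 45% GC 0.64 and 0.99 (15 windows), against 0.54 and 0.75. Within 30 to 35% GC they were 0.20 and 0.26 (69 windows), against 0.11 and 0.17. Within 25 to 30% GC they were 0.16 in Myo1-GFP and 0.09 in NoIP (26 windows), against 0.08 and 0.14, so there the order was not the same in both kinds of library. At up to 25% GC only 1 window had the core. Overlapping windows share motifs, so there are fewer sites than windows, and a match is a description of the sequence, not a bound site.

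Along the annotated transcripts, the change was highest at or within 100 bp of the start. At the start of 355 intergenic lncRNAs the median change of the window centred nearest to it was 0.20 in Myo1-GFP and 0.22 in NoIP, and 600 bp upstream it was 0.05 and -0.01. Inside the transcript it was 0.16 in both at 500 bp. At the start of 454 antisense lncRNAs it was 0.08 in both, and at 600 bp into the transcript -0.06 and 0.00. The share of windows in coding sequence was 15.5% at the start of intergenic lncRNAs, 58.9% at 600 bp upstream and 4.51% at 500 bp inside. For antisense ones it was 51.5% at the start and 77.1% at 600 bp inside.

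**Figure D5:**
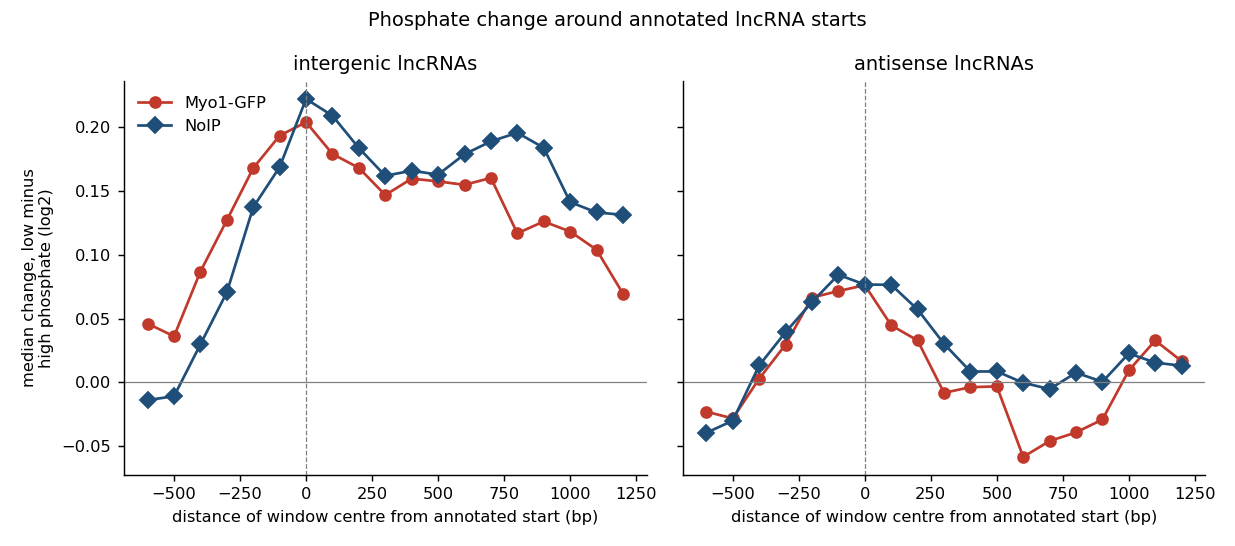
Median change between low and high phosphate (log2) of windows placed by their distance from the annotated start, for 355 intergenic and 454 antisense lncRNAs, with negative distances upstream. Both kinds of library have their highest values within 100 bp of the start in both kinds of lncRNA.

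Near the phosphate acquisition genes pho1, pho84 and tgp1 only 1 lncRNA had arm windows within 2000 bp, SPNCRNA.1343, 1490 bp from the start of tgp1, which encodes a glycerophosphodiester transporter. It had 0.23, 0.25 and -0.30 in Myo1-GFP low phosphate, against -0.01, 0.04 and 0.30 in Myo1-GFP high phosphate, and the groups overlapped (-0.05 ± 0.16, SE, limma, adjusted p = 0.907). In NoIP it had 0.39 and 0.33 in low phosphate, against 0.11 and 0.00 in high phosphate (0.31 ± 0.19, SE, limma, adjusted p = 0.912). SPNCRNA.1343 was taken here as the RNA known as nc-tgp1. The RNA known as prt was not analysed under that name, and no lncRNA lay within 2000 bp of myo1. Near 8 strongly transcribed genes of glycolysis, fermentation and translation there were 8 lncRNAs, of which 0 passed in any contrast, with changes in low phosphate between -0.44 and 1.07 in Myo1-GFP and between -0.32 and 0.84 in NoIP. The one upstream of the pyruvate kinase gene pyk1, SPNCRNA.941, had 0.70, 0.61 and 0.27 in Myo1-GFP low phosphate, against -0.07, 0.04 and -0.07 in Myo1-GFP high phosphate, and 1.06 and 0.74 in NoIP low phosphate, against 0.10 and 0.12 in NoIP high phosphate. It was higher in every low phosphate library, with adjusted p = 0.138 in Myo1-GFP and 0.114 in NoIP (limma).

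More lncRNAs passed when the 2 shallow libraries counted for less. With library weights estimated from the spread (0.0809 for Myo1-GFP low phosphate replicate 3 and 0.124 for Myo1-GFP high phosphate replicate 3), 282 lncRNAs passed in Myo1-GFP, 260 of them higher in low phosphate, beside 15.5% of gene IDs. In NoIP 148 passed, 141 of them higher, beside 6.0% of gene IDs. Of these, 133 passed in both, all in the same direction, which is 47.2% of the Myo1-GFP list and 89.9% of the NoIP list. In the 8 deeper libraries alone, 137 and 202 lncRNAs passed, beside 5.85% and 9.33% of all gene IDs. Myo1-GFP against NoIP stayed at 0 lncRNAs in all 3 contrasts under both settings.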

How the data were processed

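Chromatin immunoprecipitation reads had been aligned by the authors to ASM294v2. The submitters' processing notes name Trim Galore 0.3.8 and Bowtie2 2.2.4, the paper names TopHat and SeqMonk, and which of these made the deposited table could not be settled. The authors deposited signal per 200 bp window, starting every 100 bp. Each deposited value is a whole multiple of a step that differs between libraries, with a scaling factor that is not given in the sources used here, so no count test was run, and depths rest on reading the step as 1 read. PCR copies are not independent molecules. A window entered the fit if at least 2 libraries held signal there (126242, with all lncRNA windows). Values were transformed as log2(value + 1) and centred on each library's median window, which fixes no absolute level. For whole genes, signal was averaged over a gene ID's windows first (6117 IDs). Limma 3.58.1 in R 4.3.3 (lmFit, eBayes with a trend) was fitted to 4 group means over 10 libraries, with 6 contrasts, two-sided tests and Benjamini-Hochberg adjusted p under 0.05 over the whole table. The fit was also run on simulated windows with known changes, drawn independently of each other. Real windows overlap, so that run does not give the error rate of the calls here. Gene positions and sequences came from RefSeq's ASM294v3. Tables were handled in Python 3.11.15 with pandas 2.3.3 and numpy 2.4.6 and plotted with matplotlib 3.10.9.

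The lncRNA windows, the gene lists and the tests were chosen with earlier results of these data known. Named lncRNAs were, per contrast, at most 10 each way among those past the threshold without overlap of the groups, or the 5 each way with the smallest unadjusted p where fewer than 3 passed. Further ones were the 5 highest and 5 lowest in NoIP, those with a symbol, and those within 2000 bp of listed genes. SPNCRNA.626 lay beyond the limit of 10 and was named after its values were seen. Alternatives are given in the closing section.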

Additional observations from a re-analysis of the deposited data

Results flagged for a closer look

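SPNCRNA.1022, an antisense RNA on chromosome I (4754001 to 4755000) that overlaps ecm29 and sdu1, had phosphate changes of opposite sign in the 2 kinds of library. It had -0.32, -0.29 and 0.18 in Myo1-GFP low phosphate, against -0.37, -0.43 and -0.41 in Myo1-GFP high phosphate, so every low phosphate library lay higher. In NoIP it had -0.41 and -0.40 in low phosphate, against 0.01 and -0.25 in high phosphate, so every low phosphate library lay lower. Its Myo1-GFP change was 0.26 and its NoIP change -0.29, and the difference between them was 0.55 (limma, unadjusted p = 0.0297, adjusted p = 0.999 over all gene IDs). It was the only such lncRNA among the 40 named for a contrast. A small unadjusted p for the interaction (limma) had placed it among them, and such a choice favours opposite changes. Of all 1061 lncRNAs, 2 moved apart in this way. The share over all gene IDs is not given here, so 2 cannot be read as many or few. Of its Myo1-GFP low phosphate libraries, the shallow replicate 3 was the highest.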

How the results depend on the processing

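Myo1-GFP against NoIP and the interaction gave 0 lncRNA windows and 0 lncRNAs under every alternative run. The phosphate counts moved, and the cause was not tested. The main counts were 6 lncRNAs and 6 windows in Myo1-GFP and 12 lncRNAs and 0 windows in NoIP. In the same order (lncRNAs and windows in Myo1-GFP, then in NoIP), they were 1, 0, 2 and 0 with no centring, 20, 106, 11 and 41 with quantile normalization, 12, 7, 12 and 0 with a pseudocount of 1000, and 17, 24, 14 and 0 with GC-centred signal. They were 282, 1799, 148 and 1093 with library weights, and 137, 1039, 202 and 1405 in the 8 deeper libraries. Among all gene IDs and windows, no centring gave 1, 0, 5 and 0, and quantile normalization 34, 444, 27 and 157. A pseudocount of 1000 gave 20, 27, 21 and 0, and GC-centred signal 30, 116, 26 and 0. Library weights gave 946, 10189, 367 and 5374, and the 8 deeper libraries 358, 4972, 571 and 7336. Gene IDs with at least 3 windows gave 13 lncRNAs in Myo1-GFP and 11 in NoIP, and the mean of window log2 values gave 4 and 7. Leaving out 1 library gave 1 to 41 lncRNAs and 0 to 141 windows in Myo1-GFP, and 0 to 39 lncRNAs and 0 to 117 windows in NoIP. Replicate numbers recur in every group. Between the Myo1-GFP groups, same-numbered libraries had correlations of 0.0731, 0.159 and 0.136 in their deviations from the group means. Unlike-numbered ones had -0.174 to 0.181. Same-numbered libraries of different kinds had -0.177 to 0.313. Both NoIP pairs had 0.367, which is 1 value, because deviations of 2 libraries mirror each other. The main fit took libraries to share only a number, and these correlations do not settle whether they share more. With the replicate block the counts were 19, 9, 15 and 0, beside 34, 40, 27 and 0 among all gene IDs and windows. With the replicate block and GC-centred signal together they were 33, 7, 10 and 0. Where no count over all gene IDs or windows is given, the lncRNA count alone does not set lncRNAs apart. The median phosphate change of lncRNA windows ran between 0.03 and 0.16 in Myo1-GFP and between 0.05 and 0.17 in NoIP, and was highest with no centring in both. No named value changed sign while past the threshold.

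Depth limits what the 2 shallow libraries can show, since their median lncRNA window held 11 and 8 reads, and NoIP had 2 libraries per condition.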
